A study of Drosophila melanogaster with 2 samples.

Results

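Odorant-binding protein (Obp) genes of Drosophila melanogaster were followed in larvae that differed in an SR splicing factor transgene. Members were the probes whose single current gene symbol begins with Obp or is lush, the symbol of Obp76a, with older names such as Pbprp, Os-E and CG numbers traced through gene identifiers. There were 51 such probes among the 15744 of the table. They represent 50 genes, of the 12236 with a single symbol on the array and of the 52 Obp genes in the Release 6 annotation, and Obp73a and Obp83a had no probe under a single symbol. On each of 2 two-colour arrays, polyA RNA of larvae from GMR crossed to GFP-dASF/SF2 was set against that of larvae from GMR crossed to GFP-NLS, the control, in which GFP bears a nuclear localisation signal. Both crosses therefore carried GMR, an enhancer of the developing eye, and a GFP transgene, and the arrays carried the dyes in opposite order. The sources used here do not state the age, sex or number of the larvae, the form of GMR used, or whether the RNA extracts were separate. The comparison asks whether a raised level of dASF/SF2 alters expression broadly.

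Odorant-binding proteins are small secreted proteins whose fold is held together by disulphide bonds and encloses a pocket for hydrophobic ligands. Support cells of olfactory and taste hairs release many of them into the fluid around the receptor neurons, where they are thought to carry or buffer odorants, pheromones and tastants. Others are made outside chemosensory organs, for instance in fat body, glia or the male reproductive tract. Most of the genes lie in clusters of neighbours, and the number in each symbol gives the numbered division of the polytene chromosome map.

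Values are log ratios of the 2 channels as deposited, centred on the median of each array, with the sign of array 2 turned for its swapped dyes. Where the authors divided Cy5 by Cy3, a positive value stands for more RNA in dASF/SF2 larvae, and for less where they divided Cy3 by Cy5. This was not settled by the sources, nor was the log base, so sides are named positive and negative and folds are given for base 2 and base 10. Means carry the SD over the 2 arrays and a 95% interval from limma, which was fitted across all 10912 probes measured on both arrays. With separate extracts not stated, p-values cover only the variation from one array to the other, possibly technical. Limma set the variance of each probe mostly by the spread of all probes (prior degrees of freedom 4.35, beside 1 residual). The intervals and p-values therefore do not follow from the SD of the 2 arrays alone. The SF2 probe, which encodes dASF/SF2, had -0.031 on array 1 and -0.128 on array 2, and does not check the labels because its place relative to the transgene is unknown. Ratios carry no expression levels, and the larval origin of the RNA could not be checked against defining markers.

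Of the 51 Obp probes, 31 had a value on both arrays, covering 30 genes. A further 2 had a value on array 1 alone, 13 on array 2 alone and 5 on neither. The share measured on both arrays was 60.8%, against 73.8% of the 14784 probes left after removal of unnamed features that recur at fixed places, as control spots do. On array 1 a value was present for 64.7% of Obp probes and 74.5% of all, and on array 2 for 86.3% and 91.3%. Why a cell is blank is not stated. The 5 probes without any value were those of Obp50a, Obp51a, Obp57a, Obp57b and Obp69a.

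As a family the Obp genes lay close to the array medians, and 2 features stood apart from the rest. These were Obp49a and 5 of the 6 genes measured on both arrays from the Obp56 cluster, all on the positive side of both. The median over 30 genes was 0.0215, with array medians of 0.007 and 0.0785, beside a median of 0.004 over 9266 genes. Limma called 0 Obp probes at an adjusted p under 0.05, where it called 0% of all probes. At an unadjusted p under 0.05, limma found 6 Obp probes on the positive side, where 4.76% of all probes did so. It found 0 on the negative side, against 1.93% of all. In bulk larvae a difference in cell number cannot be told apart from one in RNA per cell.

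Counted by side, 13 of 31 Obp probes (41.9%) were positive on both arrays, against 26.1% of all probes. Only 3 (9.68%) were negative on both, against 23.1% of all, namely Obp84a, Obp85a and Obp99b. The other 15 comprised 14 with the arrays on opposite sides and Obp99a, which was at 0 on array 2. Outside the Obp56 cluster and without Obp49a, 7 of 23 genes were positive on both arrays and 3 negative. Those left out were picked from these same values. Among all 31 Obp probes, a mean of at least 0.2 with both arrays positive was reached by 7 (22.6%), against 8.69% of all. These were Obp49a, Obp56a, Obp56b, Obp56d, Obp56e, Obp56h and Obp83g. None lay at or below -0.2 with both arrays negative, against 3.56% of all. The 0.2 limit fell between Obp83g at 0.213 and Obp8a at 0.131, the next member with both arrays positive.

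**Figure D1:**
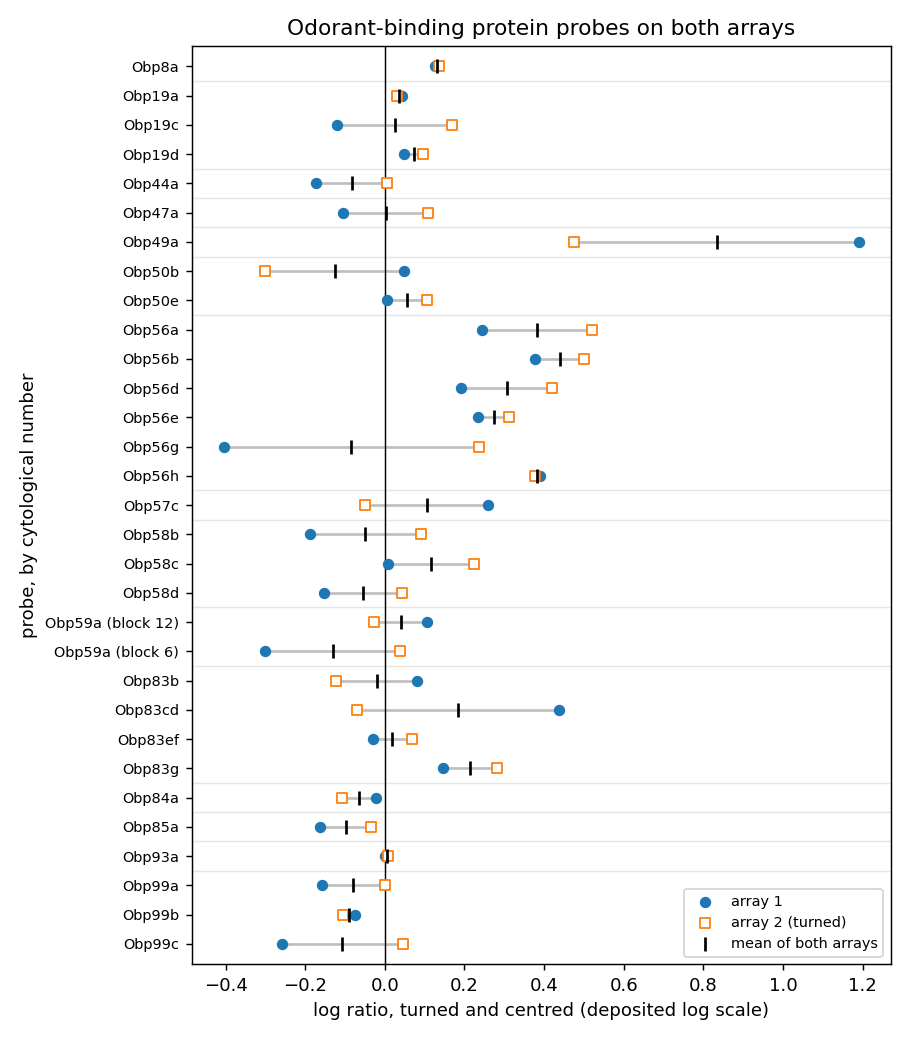
Log ratio of each Obp probe measured on both arrays (31 probes, 30 genes), turned and centred, on the deposited log scale. Filled circles are array 1, open squares array 2 and black ticks the mean, with a grey line joining the arrays. Obp49a and Obp56a, b, d, e and h stand to the right of 0 on both arrays, and most other probes straddle 0 or lie near it.

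The Obp56 genes are a tandem cluster of classic odorant-binding proteins on chromosome arm 2R. Obp56b (CG30129) had 0.378 on array 1 and 0.501 on array 2. Its mean was 0.44 ± 0.087 (SD, n = 2; interval 0.19 to 0.689), a size of 1.36-fold with base 2 and 2.75-fold with base 10. Limma gave it an adjusted p of 0.424, the lowest of the cluster, and 144 of the 10912 probes stood higher.

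Obp56h (CG13874), which has been tied to male cuticular hydrocarbons and mating behaviour, had 0.39 and 0.376. These were the closest pair of arrays in the cluster, with a mean of 0.383 ± 0.0099 (interval 0.143 to 0.623; limma adjusted p = 0.474). Obp56a (CG11797) had 0.245 on array 1 and 0.519 on array 2, with a mean of 0.382 ± 0.194 (interval 0.0993 to 0.665; limma adjusted p = 0.566). Both means correspond to 1.30-fold on base 2, and to 2.42-fold for Obp56h and 2.41-fold for Obp56a on base 10.

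Obp56d (CG11218) followed with 0.192 and 0.421, a mean of 0.306 ± 0.162 (interval 0.036 to 0.577; limma adjusted p = 0.655). Obp56e (CG8462), its neighbour, had 0.235 and 0.311, a mean of 0.273 ± 0.0537 (interval 0.0295 to 0.517; limma adjusted p = 0.658). For these 5 genes the intervals of single probes lay above 0, and no call survived adjustment over all probes. Array 2 was the higher array in 4 of them and array 1 in Obp56h.

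Obp56g (CG13873), a seminal fluid protein of adult males, differed from its cluster mates. It had -0.405 on array 1 and 0.237 on array 2, so the arrays were on opposite sides and 0.642 apart, and the mean was -0.084 ± 0.454. Gaps of 0.5 or more with opposite sides occurred in 2 Obp probes (6.45%), Obp56g and Obp83cd, against 7.18% of all probes. The remaining cluster genes had a value on 1 array alone: Obp56c 0.058 and Obp56f 0.06 on array 2, and Obp56i -0.073 on array 1. These 3 lay closer to 0 than any array value of the 5 positive genes.

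The order of genes along the chromosome was read from the Release 6 annotation. Obp56a, b, c and d are consecutive, Obp56e and f follow after 1 antisense RNA gene, and Obp56g, h and i lie beyond an array of 96 rRNA genes. Between Obp56a and Obp56i the annotation has 4 protein-coding genes outside the family, and 2 of them were measured on both arrays. Or56a, an odorant receptor gene next to Obp56g, had -0.056 and -0.009. Toll-7, a Toll-family receptor gene next to Obp56h, had 0.246 and 0.278, a mean of 0.262, just below that of Obp56e. The positive values were thus present on both sides of the rRNA genes. Between them lay Or56a, near 0, and Obp56g, with its arrays on opposite sides (-0.405 and 0.237). Obp56c (0.058) and Obp56f (0.06), measured on array 2 alone, lie among or next to Obp56a, b, d and e.

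**Figure D2:**
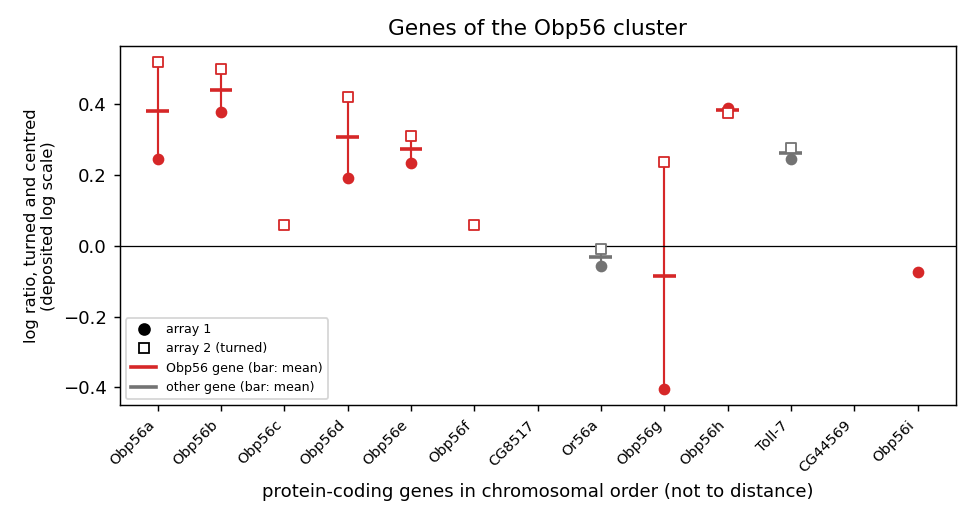
Protein-coding genes from Obp56a to Obp56i in chromosomal order, with turned and centred log ratios on the deposited log scale. Circles are array 1, squares array 2 and horizontal bars the mean where both were measured; red marks Obp56 genes and grey other genes. Obp56a, b, d, e and h and Toll-7 are positive on both arrays, and CG8517 and CG44569 have no value.

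The 5 positive Obp56 probes lay in 5 different blocks (3, 9, 18, 20 and 21) of the 24 that recurring unnamed features mark out in the probe numbering. With each block centred on its own median the means were 0.382 for Obp56a, 0.438 for Obp56b, 0.333 for Obp56d, 0.288 for Obp56e and 0.375 for Obp56h. If the deposited values already ran by genotype and needed no turning, the same 5 means would lie between -0.137 and 0.007, with the arrays on opposite sides. Probe sequences were not used here, so the part of shared sequence between related Obp56 probes was not tested.

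Obp49a (CG30052) had the largest value of the family. This Plus-C odorant-binding protein acts in taste hairs of adult flies, where it lets bitter compounds suppress the response to sugar. It had 1.19 on array 1 and 0.476 on array 2. The mean was 0.833 ± 0.504 (SD, n = 2; interval 0.376 to 1.29), a size of 1.78-fold with base 2 and 6.80-fold with base 10. Only 6 of the 10912 probes had a higher mean, yet limma gave an adjusted p of 0.422. Without turning array 2 the mean was 0.357. Array 1 exceeded array 2 by 0.713, more than any other Obp gap.

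The genes around Obp49a did not share its size. The nearest measured genes on one side were Nup188 (-0.216 and 0.375) and nemy (0.0282 and 0.0148), and on the other CG8768 (-0.003 and 0.043) and wuc (0.14 and 0.155). Their means ran from 0.02 to 0.147.

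**Figure D3:**
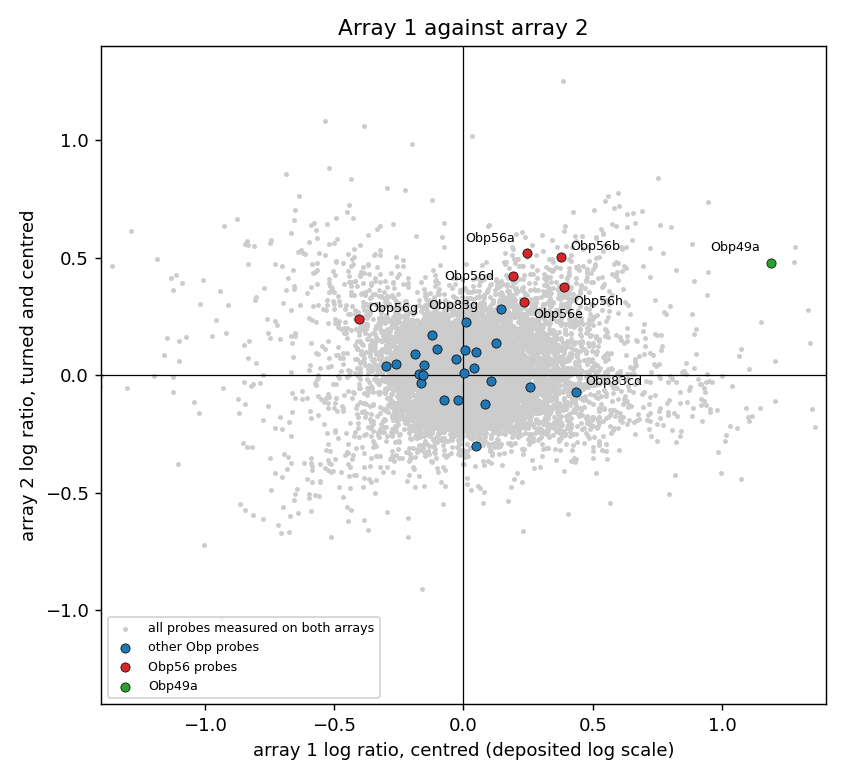
Array 1 (horizontal) against turned array 2 (vertical), centred log ratios on the deposited log scale. Grey points are all 10912 probes measured on both arrays, of which 21 lie outside the axes; coloured points are Obp probes. Obp49a is near the right edge, 5 Obp56 probes sit together in the upper right and Obp56g in the upper left.

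The Obp83 cluster on chromosome arm 3R includes Obp83b (OS-E), which with its neighbour Obp83a (OS-F) is made around pheromone-sensitive and related hairs of the adult antenna. Obp83b (CG11422) had 0.082 and -0.123, a mean of -0.0205 ± 0.145 (interval -0.285 to 0.244). The other 3 probes of the cluster belong to a second group of neighbours, separated from Obp83b by 12 further genes. Obp83g (CG31558) had 0.145 and 0.282, a mean of 0.213 ± 0.0969 (interval -0.0378 to 0.465; limma adjusted p = 0.815), and 0.186 with each block centred on its own median. Obp83cd (CG15582), a double-domain protein, had 0.437 on array 1 and -0.071 on array 2, so its mean of 0.183 ± 0.359 rested on array 1. Obp83ef (CG31557), also of double-domain type and overlapping Obp83cd in the annotation, had -0.03 and 0.067. The 5 measured genes between the groups had means from -0.189 (CtsL3) to 0.175 (CG15580).

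The Obp99 genes, on the same arm, were at or below 0 in their means. Obp99a (CG18111) had -0.158 and 0, a mean of -0.079 ± 0.112. Obp99b (CG7592), known as a sex-dependent gene of adult head fat body, had -0.074 and -0.105, a mean of -0.0895 ± 0.0219 (interval -0.33 to 0.151). Obp99c (CG7584) had -0.259 and 0.046, a mean of -0.107 ± 0.216, and Obp99d had 0.028 on array 2 alone. The intervals of the 3 genes measured on both arrays include 0. The 5 measured genes among them had a median of -0.08, similar to the Obp99 median of -0.0895.

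The Obp19 genes on the X chromosome lie side by side with no other gene between them. Obp19a (CG11748) had 0.042 and 0.03, Obp19c (CG15457) -0.12 and 0.169, and Obp19b -0.11 on array 2 alone. Obp19d (CG1668, PBPRP2), found in antennal and gustatory tissue, had 0.048 and 0.097, a mean of 0.0725 ± 0.0346 (interval -0.169 to 0.314). Means of the 3 genes measured on both arrays spanned 0.0245 to 0.0725.

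The Obp58 and Obp59 genes are 4 consecutive genes on arm 2R. Obp58c (CG13524) had 0.008 and 0.225, while Obp58b (CG13518, -0.188 and 0.09) and Obp58d (CG13519, -0.154 and 0.044) had the arrays on opposite sides. Obp59a (CG13517), needed for the humidity response of the adult antenna, was the only member with 2 probes. They disagreed, with -0.301 and 0.039 on the probe of block 6 and 0.106 and -0.027 on that of block 12, for means of -0.131 and 0.0395.

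In the Obp50 cluster 2 of 5 genes were measured on both arrays. Obp50b (CG30073) had 0.048 and -0.3, the lowest array 2 value of the family, and Obp50e (CG13939) had 0.006 and 0.107. Obp50b shares its annotated span with Obp50c, which had 0.165 on array 2 alone, so signals of the 2 genes may not be separable. Obp50d had -0.015 on array 2. Of the Obp57 genes, where Obp57d and Obp57e are known from the behavioural response to fatty acids of a host fruit, Obp57c (CG13421) alone had both arrays, at 0.259 and -0.05. Obp57d had 0.238 and Obp57e 0.076 on array 2.

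Among the genes without a close cluster, Obp8a (CG12665) had nearly equal arrays at 0.127 and 0.135, with a mean of 0.131 ± 0.00566 (interval -0.109 to 0.371). Obp44a (CG2297), which is expressed in glia of the central nervous system, had -0.172 and 0.006, a mean of -0.083 ± 0.126. Obp84a (CG1176, PBPRP4), an antennal protein, had -0.023 and -0.108. Obp85a (CG11732) had -0.163 and -0.034, Obp47a (CG12944) -0.104 and 0.109, and Obp93a (CG17284) 0.001 and 0.009. Every interval in this group of 6 includes 0.

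Several members known from olfaction lacked a pair of values, unlike Obp19d, Obp83b and Obp84a above. lush, which is needed in adult flies for the response to the pheromone cVA, had -0.05 on array 2 and no value on array 1. Obp28a (PBPRP5), an abundant antennal protein, had 0.523 on array 2 alone, the highest array 2 value of the family. Obp28a has no dye-swapped value. Its value lay inside the central 99% of array 2 values over the 10912 probes measured on both arrays (-0.454 to 0.615), which do not include it. Obp69a had no value and Obp83a no probe under a single symbol. The remaining values from array 2 alone were -0.091 for Obp18a, 0.207 for Obp46a and -0.141 for Obp47b, and Obp22a had -0.068 on array 1 alone. Over the 13 probes with array 2 alone the median was 0.058, with 8 positive and 5 negative.

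By structural class, as commonly assigned, the medians lay between -0.081 and 0.101. The 14 classic genes had a median of 0.0542, and the 8 of them outside the Obp56 cluster 0.0135, with means from -0.0655 to 0.105. The 8 Plus-C genes, which carry extra conserved cysteines, had a median of -0.022 and included Obp49a. The 6 Minus-C genes, which lack a conserved pair of cysteines, had a median of -0.081, and the 2 double-domain genes one of 0.101. The SD of gene means was 0.213 over all 30 Obp genes, beside 0.154 over all genes. Over the 23 outside the Obp56 cluster and without Obp49a it was 0.0955. Those left out were picked from these same values, so a smaller SD follows from the choice. It does not compare with the SD over all genes, which keeps the extremes.

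The 2 arrays correlated over the 31 Obp probes with r = 0.465 and rho = 0.297, against r = 0.0244 and rho = 0.00787 over all 10912 probes. Probes of 1 array share their hybridisation and dyes and are not replicates. Without Obp49a, r was 0.339. Without the Obp56 probes as well, r over the other 24 was -0.126. With Obp49a kept and only the Obp56 probes left out, r was 0.438 and rho 0.025. Obp49a and the Obp56 cluster were picked out from these same values, so a lower r without them follows from the choice.

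**Figure D4:**
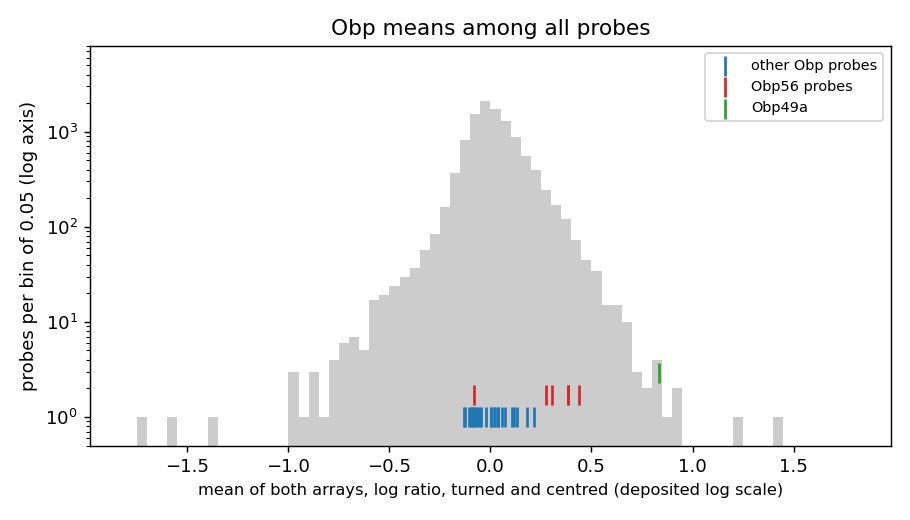
Grey bars count all 10912 probes by the mean of both arrays, in bins of 0.05 on a log count axis; coloured ticks mark the means of Obp probes (red Obp56, green Obp49a, blue others). The blue ticks lie between -0.131 and 0.213, while 5 red ticks lie from 0.273 to 0.44 and Obp49a at 0.833. The red tick of Obp56g, at -0.084, lies within the range of the blue ticks.

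Partners of the family in chemosensation were read from fixed lists. Of 187 odorant, gustatory and ionotropic receptor genes, 165 had a probe and 72 were measured on both arrays. Their median was 0.047, with array medians of 0.106 and -0.0105, on opposite sides. Of these 72, 15 were positive and 7 negative on both arrays, where 26.1% and 23.1% of all probes were. Limma called 0 of them. Means of at least 0.2 with both arrays positive were found for 2 of the 72, against 8.69% of all probes. These were Ir85a (0.205 and 0.2) and Or67d (0.654 and 0.028), and the Or67d mean of 0.341 was the highest of the list. Other genes of the fluid around receptor neurons include CheA and CheB proteins and the chemosensory proteins EbpIII and Phk-3. Of 29 such genes, 15 had a probe and 7 were measured on both arrays. Their median was 0.0525, with array medians of 0.07 and -0.065, on opposite sides. EbpIII had 0.045 and 0.358 and Phk-3 0.07 and 0.186, the only 2 of the 7 positive on both arrays.

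Markers of other tissues had the following values in the same comparison, and their part in the Obp values was not tested. Of all probes, 26.1% were positive and 23.1% negative on both arrays. The fat body, neuronal and glial lists have only 4 to 6 measured genes, so their shares are imprecise. The midgut list holds genes already known to be extreme in these data. Midgut genes had 8 of 10 negative on both arrays, with a median of -0.598 (-0.614 and -0.577), while the amylase gene Amy-d was positive on both (0.213 and 0.465) and Amy-p had -0.189 and 0.169. Fat body genes had 3 of 4 negative on both, with a median of -0.0892. Their means were -0.365 for apolpp, -0.118 for Fbp2, -0.06 for Fbp1 and 0.0045 for Lsp2, whose arrays had 0.033 and -0.024. Neuronal genes had 3 of 5 positive on both, with a median of 0.141. Glial genes split, with 2 of 6 positive on both, led by Gs2 at 0.512, and 3 negative on both, led by repo at -0.275. Limma called 0 genes of each of these lists.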

How the data were processed

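The values are 1 log ratio per probe for each of 2 dye-swapped arrays, deposited by the authors as a score with log base, normalization, numerator channel and blank-cell filter not stated. Blank cells (3996 on array 1, 1450 on array 2) and 7 cells with the code -10000 were treated as missing. The 0 further columns of values leave nothing unused. Genes came from the platform annotation, which names 1 gene on 13147 probes, more on 99 and none on 2498, and all 51 Obp probes matched the Release 6 table by gene identifier. The 960 unnamed features repeated at 40 places in each of 24 blocks of 656 probes were left out. Arrays were centred on their medians (0.002 and 0.01) and array 2 was turned. limma 3.58.1 in R 4.3.3 (lmFit, eBayes, two-sided against 0, Benjamini-Hochberg over all probes, threshold 0.05, 1 residual degree of freedom) was tested on simulated data. That test required only that mean estimates recover the added shifts, not that the shifts be called. All Obp genes were named, and those with both arrays on 1 side and a mean of at least 0.2, or on opposite sides and at least 0.5 apart, were singled out. Members and lists were chosen with earlier results of these data known; the structural classes were assigned after the values were seen. The number of arrays, 2, limits the precision.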

Additional observations from a re-analysis of the deposited data

How the results depend on the processing

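Alternatives were no turning of array 2, no centring, block centring, keeping the repeated unnamed features, using probes with a value on either array, a robust prior, and each array alone. Limma called 0 probes in every fit that gave a test, and the adjusted p of Obp genes ran from 0.28 to 0.999. Without turning, 5 Obp probes were positive and 9 negative on both arrays, and the median was -0.0511. The sign then reversed for Obp19c (-0.144), Obp19d (-0.0245), Obp47a (-0.106), Obp50b (0.174), Obp50e (-0.0505), Obp56a (-0.137), Obp56b (-0.0615), Obp56d (-0.115), Obp56e (-0.038), Obp58c (-0.108), Obp83b (0.102), Obp83ef (-0.0485), Obp83g (-0.0685), Obp84a (0.0425), Obp8a (-0.004), Obp93a (-0.004) and Obp99b (0.0155), by construction where the turned array was the larger. Without centring, 5 Obp probes were negative on both arrays and Obp47a had -0.0015. With block centring the number was 6, and Obp47a (-0.026), Obp83b (0.0055) and Obp83ef (-0.0132) changed sign. The block 12 probe of Obp59a alone gave 0.0395, against a gene mean of -0.0457. On single arrays 18 to 22 Obp probes were positive and 8 to 13 negative, and the median ran from 0.007 to 0.0785. Chosen after seeing the data, leaving out Obp49a gave a median of 0.0185. Over the settings that turned and used both arrays, the mean of Obp49a ran from 0.829 to 0.84 and that of Obp56b from 0.435 to 0.443. On single arrays Obp49a had 0.476 without array 1 and 1.19 without array 2, and Obp56b 0.501 and 0.378. No paired analysis was possible because the 2 arrays form 1 group. Signal over background is not in the table, so its limit on these values was not tested.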
